A study of Rattus norvegicus with 20 samples.

Results

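The 43 genes described here encode the kinases, lipid kinases and phospholipases that carry signals from transmitter receptors into the synapse. They are the protein kinase A subunits Prkaca, Prkacb, Prkar1a, Prkar1b, Prkar2a and Prkar2b, the protein kinase C isoforms Prkca, Prkcb, Prkcd, Prkce and Prkcz, the calmodulin kinases Camk2a, Camk2b, Camk2d, Camk2g and Camk4, the phosphoinositide 3-kinase subunits Pik3ca, Pik3cb, Pik3cd, Pik3cg, Pik3r1, Pik3r2 and Pik3r3, the kinases Akt1, Akt2, Gsk3a and Gsk3b below them, the MAP kinases Mapk3, Mapk8, Mapk9, Mapk10, Mapk11, Mapk12, Mapk13 and Mapk14, the Src family kinase Fyn, the phospholipases Plcb1, Plcb2, Plcb3 and Plcb4, and the inositol trisphosphate receptors Itpr1, Itpr2 and Itpr3. They were chosen by name, as genes of the synapse pathway maps, and every probe of the array annotated with one of these symbols was taken, 60 probes in all. Of the 43 genes, 39 were well enough above background to be tested, among 17086 genes of the whole array. Pik3cd, Pik3cg, Plcb2 and Itpr3 were not well above background in all 4 samples of any condition and were not tested.

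The arcuate nucleus, a hypothalamic nucleus that controls feeding, growth and reproduction, was dissected whole from 20 female Sprague-Dawley rats on postnatal day 15, and its RNA was hybridized to two-colour oligonucleotide arrays, 4 rats in each of 5 conditions. SNS rats were born to mothers injected with saline, and had no spasms. The mothers of all other rats received 2 injections of betamethasone, a synthetic glucocorticoid, at 0.4 mg/kg each on gestational day 15. Of their offspring, BNS rats had no spasms and were given saline, while in BYS, BYA and BYP rats spasms were triggered by NMDA on postnatal days 12, 13 and 15, with saline (BYS), ACTH (BYA) or the complement C5a receptor antagonist PMX53 (BYP) as treatment. The spasm groups therefore differ from SNS by betamethasone as well as by NMDA, and from BNS by NMDA and, for BYA and BYP, the drug.

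Receptors coupled to Gs raise cyclic AMP, which frees the catalytic subunits of protein kinase A (Prkaca, Prkacb) from the regulatory subunits. Receptors coupled to Gq activate phospholipase C beta, which splits a membrane phosphoinositide into diacylglycerol, an activator of protein kinase C, and inositol trisphosphate, which opens calcium stores through the Itpr channels. Calcium, bound to calmodulin, switches on the CaMK enzymes, and growth factor and insulin receptors act through phosphoinositide 3-kinase, Akt and glycogen synthase kinase 3. In the arcuate nucleus leptin and insulin are known to signal through phosphoinositide 3-kinase in the neurons that make Agrp and Pomc.

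Some of these genes were read by several probes that gave different answers, so the probes on which the results turn are shown first. All positions are those of the array design, whose coordinates have the chromosome lengths of the rat build rn4. In both of the following probes the last 3 bases, in capitals, are the stop codon of the coding sequence, so that each reads the very end of the coding part of its transcript, Prkaca at chr19:25842289-25842348 on the minus strand and Plcb1 at chr3:123522269-123522328 on the plus strand.
Prkaca, probe A_64_P016443: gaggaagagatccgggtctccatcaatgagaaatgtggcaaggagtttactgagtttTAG
Plcb1, probe A_64_P097726: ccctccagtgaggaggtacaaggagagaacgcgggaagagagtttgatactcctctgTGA
The second probe of Prkaca (A_64_P105515, chr19:25840817-25840876) lies 1412 bases beyond this stop codon, and that of Plcb1 (A_44_P224547, chr3:123523416-123523475) 1087 bases beyond it, both on the strand of the gene. Prkacb was read by a probe that joins exons on either side of an intron, its 60 bases spreading over 5336 bases of the minus strand at chr2:244949415-244954750, and by a second probe 2945 bases further down (A_44_P880354, chr2:244946410-244946469).
Prkacb, probe A_44_P118833: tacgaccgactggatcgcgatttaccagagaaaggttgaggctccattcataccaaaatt
Pik3ca had 6 probes, and 2 of them, 7928 bases apart on the plus strand, are shown because they moved in opposite directions. The first lies at chr2:118661160-118661219 and the second at chr2:118669148-118669207.
Pik3ca, probe A_64_P073033: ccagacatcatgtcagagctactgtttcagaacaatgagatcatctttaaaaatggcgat
Pik3ca, probe A_64_P066438: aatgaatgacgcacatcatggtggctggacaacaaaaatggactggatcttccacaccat
Of the 43 genes, 30 had a single probe and 13 had more.

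Levels are log2 of the background-corrected, quantile-normalised fluorescence intensity, averaged over the probes of a gene. They compare samples for a given gene, not genes with each other. A difference is on the same log2 scale, so that a difference of 1 is a 2-fold change. Differences were tested with limma, fitted to all 20 samples at once with a term for the dye, and a gene was called at a Benjamini-Hochberg adjusted p under 0.05 over all genes. Each rat's RNA filled 1 channel of an array, and both channels of an array usually held rats of the same condition. Among the 20 channels used no slide carried more than 1 condition, with BYA replicate 3 on a slide apart from the other BYA rats. The second channels of the arrays of BYA replicates 3 and 4 were not used here. Thus slide and condition cannot be told apart in any difference below.

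The arrays of the conditions were not equally bright. SNS arrays were the dimmest, the spot signal being 6.94 times the background (median), beside 7.43 for BYA, 9.06 for BYP and 16.0 for both BNS and BYS. Of the 39 genes, 26 were well above background in all 20 samples, and the others in part of them. In SNS, Akt2 was above background in 0 of 4 samples, Pik3cb and Prkar2a in 1, Camk2a, Pik3r3, Mapk13, Plcb3 and Itpr2 in 2, and Prkca, Plcb1 and Plcb4 in 3. All 12 arcuate neuron markers sought, among them Agrp, Npy and Pomc, passed the filter, and their mean log2 level lay between 12.41 and 13.19 in every sample. For BYA replicate 3 the label's dye contradicts the sample order in the raw data's name, and the label was followed. By the order in that name, the channel used would hold the other rat of the array, named as a male SNS rat. Which is right was not tested.

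Part of the kinase genes differed between the saline controls and the rats of betamethasone-treated mothers, and most of those called were higher in the latter. None was called among the betamethasone groups, between rats with and without spasms or between treatments. Called or not, 13 of the 39 genes were fitted higher and 26 lower in BNS against SNS. These counts were 22 and 17 in BYS, 21 and 18 in BYA, and 23 and 16 in BYP. Against SNS, 6 of the 39 genes were called in BNS, 5 higher and 1 lower, which is 15.4% of them beside 28.6% of all genes (15.1% higher and 13.4% lower). In BYS 8 were called, 7 higher and 1 lower (20.5%, beside 27.1% of all genes, 14.5% higher and 12.6% lower). BYA also had 8, 7 higher and 1 lower (20.5%, beside 31.3%, 15.8% higher and 15.4% lower), and BYP 9, all higher (23.1%, beside 28.9%, 15.4% higher and 13.5% lower). In each comparison the share called among the kinase genes lay below that of all genes, which is given as a description without a test. The 4 comparisons share the same 4 SNS samples and are not independent of each other. Altogether 11 genes were called in at least 1 of them (28.2%, beside 49.5% of all genes), and 4, Prkaca, Pik3cb, Akt2 and Plcb1, in all 4 with the same sign (10.3%, beside 13.4%).

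**Figure D1:**
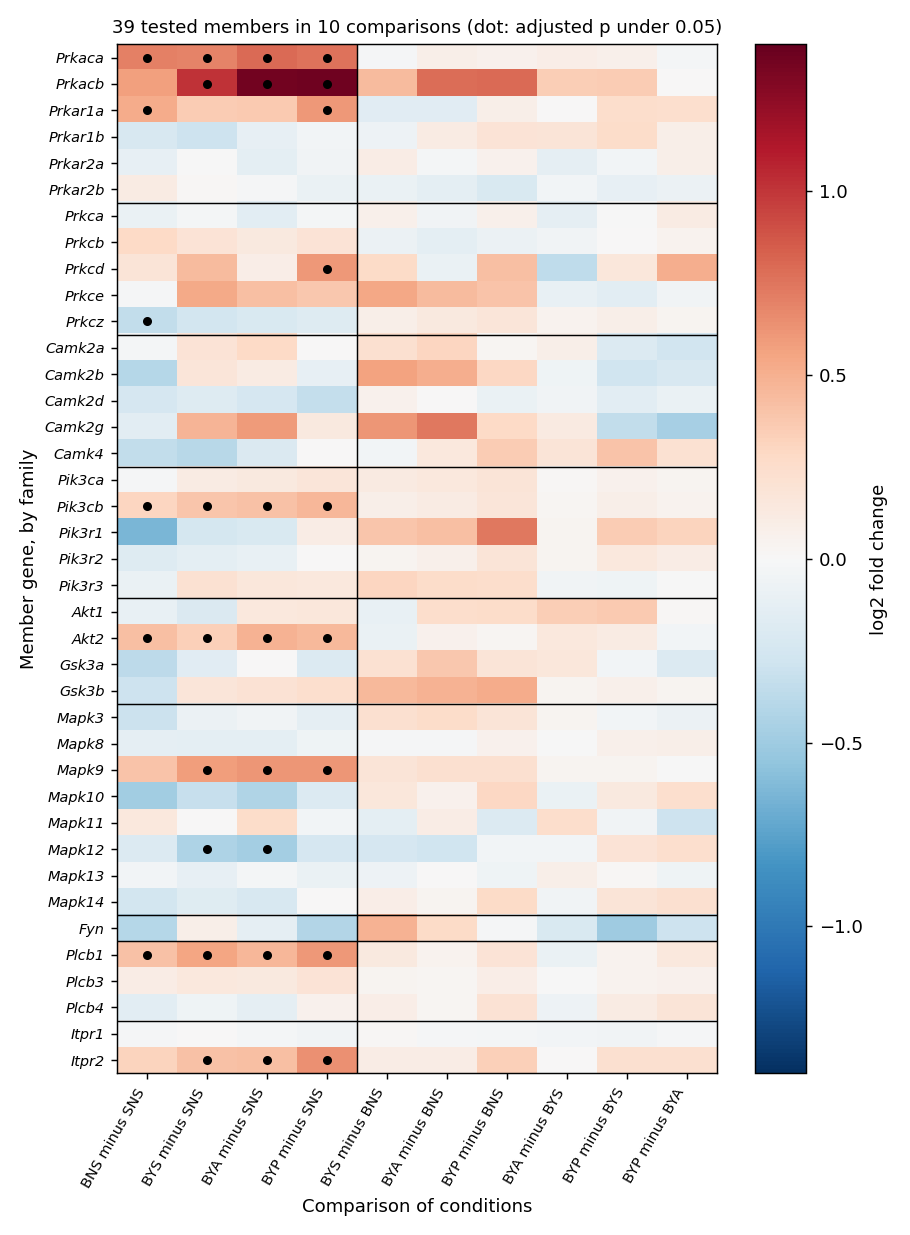
Difference on the log2 scale (colour) for each of the 39 tested genes (rows) in each of the 10 comparisons between conditions (columns), with a dot where the adjusted p was under 0.05. All dots lie in the 4 comparisons with SNS, where Prkaca, Pik3cb, Akt2 and Plcb1 carry a dot in each.

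The filter on dim probes bears on these counts, because 11 of the 39 genes passed it through betamethasone groups and not through SNS, and for these a higher value against SNS was favoured. Pik3cb, Akt2, Plcb1 and Itpr2 are among them. Of the 26 genes above background in all 20 samples, 3 were called in BNS (Prkaca and Prkar1a higher, Prkcz lower), 3 in BYS and 3 in BYA (Prkaca, Prkacb and Mapk9, all higher) and 5 in BYP (these 3, Prkar1a and Prkcd, all higher), beside 29.4%, 28.7%, 32.6% and 29.8% of all genes with such signal. The balance of directions in BNS depended on the scaling. With every channel scaled to the same median, 7 genes were called in BNS, Prkaca and Plcb1 higher and Prkcz, Mapk3, Mapk10, Mapk14 and Pik3r1 lower (beside 15.5% of all genes), while Prkaca and Plcb1 were called higher in all 4 comparisons. The calls over all genes then split into 791 higher and 1863 lower in BNS, 954 and 492 in BYS, 999 and 402 in BYA, and 1583 and 3317 in BYP.

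The median difference of the 39 genes was −0.10 between BNS and SNS, 0.02 between BYS and SNS, 0.09 between BYA and SNS and 0.01 between BYP and SNS, beside −0.04, −0.03, −0.04 and −0.04 over all genes. Samples on the same array lay closer to each other than samples of the same condition on other arrays, with mean distances of 0.289 and 0.373 on the log2 scale. With the array as a random block, calls fell to 3 genes in BNS, 2 in BYS, 5 in BYA and 6 in BYP, beside 15.2%, 13.9%, 19.4% and 15.5% of all genes. Prkaca and Plcb1 were called in all 4 comparisons in that fit too, Akt2 in BNS, BYA and BYP, Pik3cb in BYA and BYP, Prkacb in BYA, and Itpr2 and Prkar1a in BYP.

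The 6 protein kinase A subunits had 9 calls among their 24 differences from SNS (37.5%). The shares of all genes called were 28.6%, 27.1%, 31.3% and 28.9% in BNS, BYS, BYA and BYP. Of the 9 calls, 4 came from Prkaca, and 2 from Prkar1a, whose probe is uncertain. All 24 differences rest on the same SNS samples. Prkaca, which encodes the catalytic alpha subunit, had log2 levels of 10.96, 11.31, 11.43 and 11.21 in SNS, 11.82, 11.91, 12.04 and 11.94 in BNS, 12.02, 11.80, 11.86 and 11.98 in BYS, 11.95, 12.01, 11.89 and 12.20 in BYA, and 12.08, 11.93, 12.02 and 11.92 in BYP. All samples from betamethasone litters lay above all 4 SNS samples. Prkaca rose against SNS by 0.70 ± 0.10 (SE, adjusted p = 7.21e-05) in BNS, 0.69 ± 0.10 (SE, adjusted p = 9.46e-05) in BYS, 0.79 ± 0.10 (SE, adjusted p = 2.22e-05) in BYA and 0.76 ± 0.10 (SE, adjusted p = 3.55e-05) in BYP, or 1.63-fold to 1.73-fold. Among the betamethasone groups it lay within a narrow band, with a difference of −0.014 between BYS and BNS (95% interval −0.23 to 0.20, adjusted p = 0.999). The calls did not depend on any single sample, but with the scanner software's own processed signals Prkaca was called only in BYA, its difference in BNS then being 0.46 (adjusted p = 0.127).

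The change of Prkaca lay in 1 of its 2 probes. The probe beyond the stop codon read 13.76, 14.47, 14.18 and 14.04 in SNS and 15.52, 15.64, 15.46 and 15.55 in BNS, with no overlap and a difference of 1.43 ± 0.12 (SE, adjusted p = 1.61e-07). In BYS, BYA and BYP it was higher than SNS by 1.47, 1.39 and 1.45. The probe that ends in the stop codon, printed above, read 8.16, 8.15, 8.68 and 8.38 in SNS and 8.13, 8.18, 8.63 and 8.33 in BNS, values that overlap throughout. Its difference was −0.023 in BNS, −0.088 in BYS, 0.19 in BYA and 0.078 in BYP. This probe was dim, well above background in 3 of 4 SNS samples. The value of the gene is the average of both probes. The pair was picked for its difference, which is given as a description.

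Prkacb, the catalytic beta subunit, was called in BYS, BYA and BYP but not in BNS. Its gene value came from the probe across the intron, with log2 levels of 9.05, 8.86, 9.11 and 8.77 in SNS, 9.29, 9.62, 9.96 and 9.19 in BNS, 9.68, 9.34, 9.49 and 11.31 in BYS, 11.06, 9.51, 9.95 and 10.68 in BYA, and 10.29, 10.16, 10.54 and 10.23 in BYP. Every betamethasone sample lay above the highest SNS sample, but the groups were spread widely, and BYS replicate 4 and BYA replicates 1 and 4 stood above the rest. The differences from SNS were 0.57 ± 0.36 (SE, adjusted p = 0.235) in BNS, 1.01 ± 0.36 (SE, adjusted p = 0.0435) in BYS, 1.35 ± 0.36 (SE, adjusted p = 0.00838) in BYA and 1.36 ± 0.36 (SE, adjusted p = 0.00901) in BYP. The call in BYS was lost without BYS replicate 4 (0.51, adjusted p = 0.143), and also without BYS replicate 1 or any 1 of the 4 SNS samples (adjusted p from 0.0529 to 0.0851). The distal Prkacb probe, left out of the gene value because SNS replicate 4 had no valid spot, read 14.23, 14.70 and 14.06 in SNS and 15.25, 15.49, 14.91 and 15.53 in BNS and was higher than SNS by 0.88 ± 0.15 (SE, adjusted p = 0.000336) in BNS, 0.76 in BYS, 0.77 in BYA and 0.58 in BYP, with adjusted p from 0.000336 to 0.00745 when probes were fitted one by one. It ranked the betamethasone groups differently from the first probe, BNS being highest here and lowest there.

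**Figure D2:**
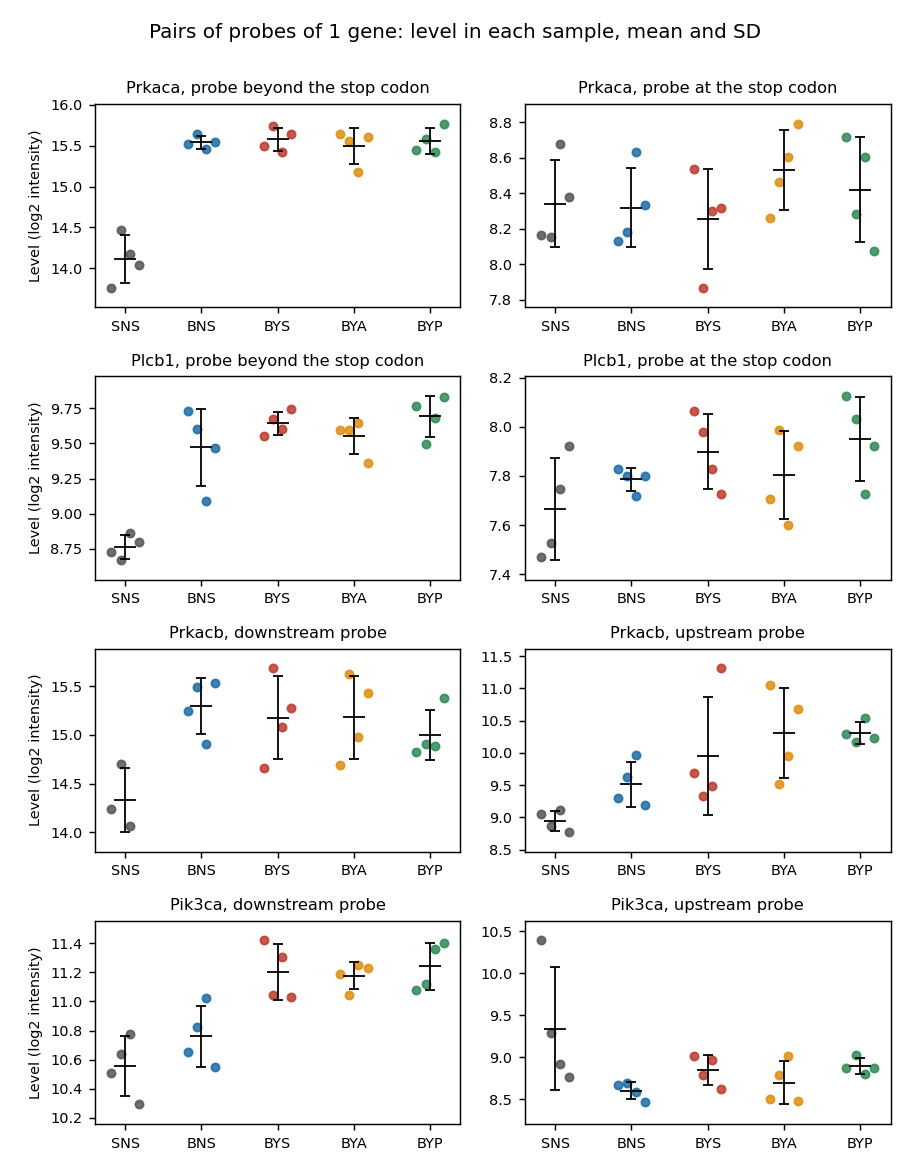
Log2 levels by sample for pairs of probes of Prkaca, Plcb1, Prkacb and Pik3ca, points being samples grouped by condition. In Prkaca and Plcb1 the distal probe lies lowest in SNS, while the probe at the stop codon overlaps between conditions.

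The regulatory subunits hold the catalytic subunits inactive until cyclic AMP binds. Prkar1a, the type I alpha subunit, had log2 levels of 12.72 and 12.97 in SNS, 13.38, 13.42, 13.32 and 13.34 in BNS, 13.18, 13.08, 13.28 and 13.28 in BYS, 13.45, 13.003, 13.10 and 13.29 in BYA, and 13.27, 13.73, 13.50 and 13.28 in BYP, 2 of the SNS samples having no valid spot. The 2 remaining SNS values lay below all others. Prkar1a rose by 0.52 ± 0.14 (SE, adjusted p = 0.0141) in BNS and 0.60 ± 0.14 (SE, adjusted p = 0.00587) in BYP, while the differences in BYS (0.36, adjusted p = 0.0748) and BYA (0.37, adjusted p = 0.0631) were not called. Without SNS replicate 3, which leaves SNS with 1 value whose spread is taken from the other groups, both calls were lost (adjusted p = 0.145 and 0.0825). The software's processed signals gave −0.018 in BNS, and scaling every channel to the same median gave −0.029 in BYP, so the direction for Prkar1a depends on the processing. The Prkar1a probe is placed at chrX:148642221-148642280 in the array design, a chromosome other than the one RefSeq gives for this gene in the current build, so its identity is uncertain. Prkar1b, Prkar2a and Prkar2b were not called in any comparison, their differences from SNS running from −0.29 (Prkar1b in BYS) to 0.11 (Prkar2b in BNS).

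The protein kinase C isoforms respond to diacylglycerol, some of them also to calcium, except for the atypical zeta form. Of the 5, 2 were called, each in a single comparison, while 49.5% of all genes were called in at least 1 comparison with SNS. Prkcz, the zeta isoform, had log2 levels of 10.07, 10.22, 10.15 and 10.27 in SNS, 9.88, 9.92, 9.76 and 9.77 in BNS, 10.05, 9.84, 9.80 and 9.97 in BYS, 9.86, 9.997, 9.85 and 10.16 in BYA, and 10.19, 9.88, 10.01 and 9.92 in BYP. The BNS and BYS samples all lay below the SNS samples, BYS only narrowly, and BYA and BYP overlapped SNS. Prkcz fell by 0.35 on the log2 scale in BNS (SE 0.10, adjusted p = 0.0129), and its differences in BYS, BYA and BYP were −0.26, −0.21 and −0.18, none called. Prkcd, the delta isoform, had log2 levels of 9.09, 9.36, 9.31 and 9.17 in SNS, 9.59, 9.27, 9.02 and 9.77 in BNS, 9.16, 9.46, 10.10 and 9.997 in BYS, 9.48, 9.30, 9.07 and 9.44 in BYA, and 9.43, 9.80, 9.82 and 10.30 in BYP. BYP lay above SNS in every sample, whereas BNS and BYS ranged from within or below the SNS values to well above them. Prkcd rose by 0.60 ± 0.20 (SE, adjusted p = 0.0306) in BYP, a call lost without BYP replicate 3 or 4 or SNS replicate 1, 2 or 4 (highest adjusted p = 0.104, without BYP replicate 4). Prkcd is also a marker of the thalamus. The 6 listed markers, Prkcd among them, had a mean level of 9.67 in SNS (from 9.54 to 9.76) and 9.69 in BYP (from 9.54 to 9.81). They did not move together, 1 being called higher in BYP, Prkcd itself, and 1 lower. Tcf7l2 read 9.89 to 10.11 in SNS and 9.30 to 9.77 in BYP. The part of these markers in the Prkcd difference was not tested.

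Prkca, Prkcb and Prkce were not called at the gene level against SNS, with differences from −0.15 (Prkca in BYA) to 0.53 (Prkce in BYS). Single probes were called. The distal probe of Prkcb was higher in BNS by 0.58 ± 0.21 (SE, adjusted p = 0.0495) beside −0.022 for its other probe, and a probe of Prkca differed in BYA by −0.32 ± 0.11 (SE, adjusted p = 0.0333). Over all probes taken singly, 9 of 53 kinase probes were called in BNS, 10 in BYS, 13 in BYA and 13 in BYP, beside 28.7%, 27.4%, 31.9% and 29.2% of all probes.

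No calmodulin kinase was called in any comparison. Camk2a, Camk2b, Camk2d and Camk2g, the subunits of calcium/calmodulin kinase II, and Camk4 form the calcium-dependent arm of the set. Their differences from SNS ranged from −0.40 (Camk2b in BNS) to 0.60 (Camk2g in BYA). In BNS all 5 had a negative fitted difference, the highest being −0.02. A single probe of Camk2d differed in BYP by −0.64 ± 0.19 (SE, adjusted p = 0.0173).

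Plcb1, the phospholipase C beta that acts below Gq-coupled receptors such as the muscarinic and group I metabotropic glutamate receptors, was called in all 4 comparisons. Its log2 levels were 8.10, 8.10, 8.31 and 8.36 in SNS, 8.78, 8.70, 8.41 and 8.63 in BNS, 8.81, 8.82, 8.72 and 8.73 in BYS, 8.65, 8.79, 8.62 and 8.64 in BYA, and 8.94, 8.76, 8.71 and 8.87 in BYP. All betamethasone samples lay above all 4 SNS samples. Plcb1 rose by 0.41 ± 0.094 (SE, adjusted p = 0.00368) in BNS, 0.55 ± 0.094 (SE, adjusted p = 0.000353) in BYS, 0.46 ± 0.094 (SE, adjusted p = 0.00148) in BYA and 0.61 ± 0.094 (SE, adjusted p = 0.000147) in BYP, and the call held without any 1 sample. Plcb1 was above background in 3 of 4 SNS samples and passed the filter only through betamethasone groups, which favoured a higher value. As in Prkaca, the distal probe carried the difference, with 8.73, 8.67, 8.87 and 8.80 in SNS and 9.73, 9.60, 9.09 and 9.47 in BNS, and 0.71, 0.87, 0.78 and 0.93 above SNS in BNS, BYS, BYA and BYP. The probe at the stop codon, above background in only 1 of 4 SNS samples, gave 0.12, 0.23, 0.14 and 0.29. With the software's processed signals Plcb1 was not called in BNS or BYA.

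Plcb3 and Plcb4, which encode related phospholipases, were not called, with differences from −0.14 to 0.19. Itpr2, a calcium release channel gated by inositol trisphosphate, had log2 levels of 8.18, 8.25, 8.33 and 8.54 in SNS, 8.88, 8.72, 8.45 and 8.50 in BNS, 8.97, 8.62, 8.95 and 8.43 in BYS, 8.49, 8.94, 8.85 and 8.70 in BYA, and 9.18, 8.86, 8.81 and 9.02 in BYP. BYP lay above every SNS sample, and the other betamethasone groups overlapped SNS at their lower end. Itpr2 was above background in 2 of 4 SNS and 3 of 4 BYA samples. It passed the filter only through betamethasone groups, which favoured a higher value against SNS. Itpr2 rose by 0.42 ± 0.14 (SE, adjusted p = 0.0372) in BYS, 0.42 ± 0.14 (SE, adjusted p = 0.0322) in BYA and 0.64 ± 0.14 (SE, adjusted p = 0.0029) in BYP, and in BNS its difference was 0.31 (adjusted p = 0.108). The BYP call held without any 1 sample, while those in BYS and BYA were lost without any 1 of several samples (BYS replicate 1 or 3, BYA replicate 2, 3 or 4, SNS replicate 1, 2 or 3, highest adjusted p = 0.118). Itpr1, the main form in brain, was not called, with differences between −0.047 and 0.0029.

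**Figure D3:**
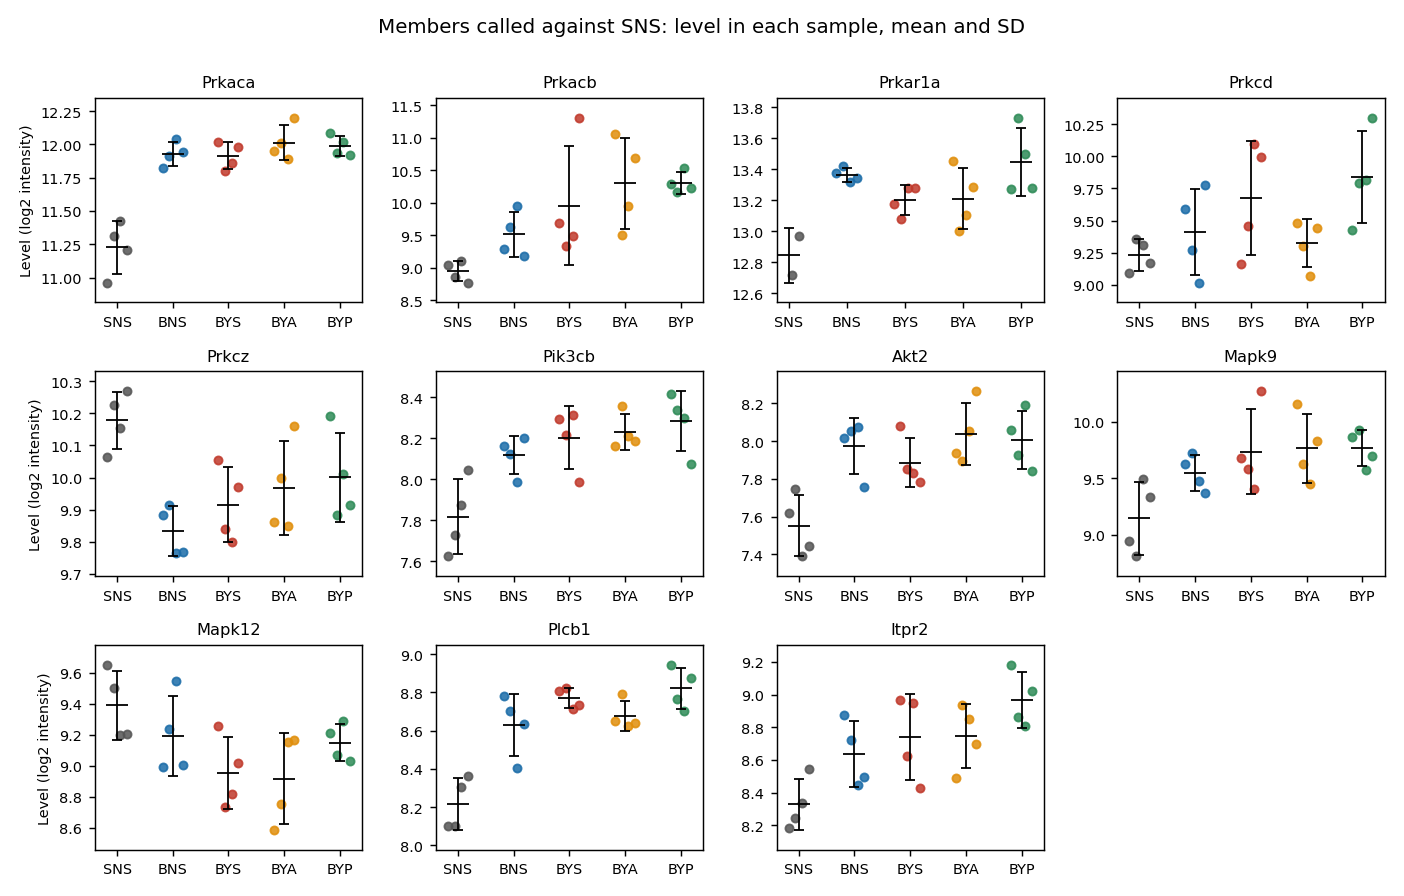
Log2 levels in every sample of the 11 genes called against SNS in at least 1 comparison, with points for rats grouped by condition. For Prkaca, Prkacb, Akt2 and Plcb1 the 4 SNS points lie below all others.

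In the phosphoinositide 3-kinase and Akt arm, Pik3cb and Akt2 were called in all 4 comparisons, and both passed the filter only through betamethasone groups. Pik3cb, the catalytic beta subunit, had log2 levels of 7.62, 7.73, 7.87 and 8.05 in SNS, 8.16, 8.12, 7.99 and 8.20 in BNS, 8.30, 8.22, 8.32 and 7.98 in BYS, 8.16, 8.36, 8.21 and 8.19 in BYA, and 8.42, 8.34, 8.30 and 8.08 in BYP. SNS replicate 4 reached into the range of BNS and BYS, and the 3 other SNS samples lay below all betamethasone samples. Pik3cb rose by 0.30 ± 0.11 (SE, adjusted p = 0.0435) in BNS, 0.39 ± 0.11 (SE, adjusted p = 0.0135) in BYS, 0.41 ± 0.11 (SE, adjusted p = 0.00786) in BYA and 0.47 ± 0.11 (SE, adjusted p = 0.00394) in BYP, with 1 of 4 SNS samples above background. The BNS call was lost without SNS replicate 1, 2 or 3 or BNS replicate 1, 2 or 4 (highest adjusted p = 0.140), and the other calls held without any 1 sample.

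Akt2, the Akt isoform best known from insulin signalling, had log2 levels of 7.62, 7.75, 7.39 and 7.45 in SNS, 8.02, 8.05, 8.07 and 7.76 in BNS, 8.08, 7.85, 7.83 and 7.78 in BYS, 7.94, 7.89, 8.05 and 8.26 in BYA, and 8.06, 7.92, 8.19 and 7.84 in BYP. Its 4 SNS values, none well above background, lay below all others. SNS gives only a bound for the ratio of group means, at least 1.33-fold in BNS and 1.25-fold in BYS. It was at least 1.39-fold in BYA (2 of 4 BYA samples above background) and 1.36-fold in BYP. Each bound is the mean of the brighter group over the SNS mean of the lowest level that was well above background on each array, or of the gene's own level where higher. That SNS floor, 7.56, lay close to the measured SNS mean of 7.55, and the bounds carry no sampling error. In BNS, BYS, BYA and BYP the limma adjusted p was 0.00989, 0.035, 0.00364 and 0.00638. These p values belong to the differences from the measured SNS values, not to the bounds, and the filter favoured a higher value. The BYS call was lost without SNS replicate 1, 3 or 4 or BYS replicate 1 or 2 (highest adjusted p = 0.111).

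The other members of this arm were not called at the gene level. Akt1 and both forms of glycogen synthase kinase 3, a kinase that Akt inhibits (Gsk3a and Gsk3b), had differences from SNS between −0.37 (Gsk3a in BNS) and 0.23 (Gsk3b in BYP). Pik3r1, Pik3r2 and Pik3r3, the regulatory subunits, lay between −0.64 (Pik3r1 in BNS) and 0.21 (Pik3r3 in BYS). Pik3ca, the catalytic alpha subunit, had log2 levels of 9.69, 9.57, 9.14 and 9.39 in SNS, 9.42, 9.49, 9.46 and 9.37 in BNS, 9.63, 9.52, 9.61 and 9.48 in BYS, 9.51, 9.71, 9.60 and 9.5 in BYA, and 9.58, 9.66, 9.58 and 9.65 in BYP. SNS overlapped every other group, and the Pik3ca differences from SNS lay between −0.012 and 0.17. All BYA and BYP samples lay above all BNS samples, BYA only narrowly. Its probes moved apart. The probe at chr2:118669148-118669207 was higher than SNS by 0.65 ± 0.12 (SE, adjusted p = 0.000728) in BYS, 0.62 ± 0.12 (SE, adjusted p = 0.000891) in BYA and 0.69 ± 0.12 (SE, adjusted p = 0.000415) in BYP, while the probe at chr2:118661160-118661219 was lower, the difference being −0.74 ± 0.23 (SE, adjusted p = 0.0232) in BNS and −0.64 ± 0.23 (SE, adjusted p = 0.0398) in BYA. The second of these rests on SNS replicate 1, at 10.39 beside 9.29, 8.92 and 8.77 in the other SNS samples.

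Among the MAP kinases, 2 of the 8 were called in at least 1 comparison with SNS, beside 49.5% of all genes. Mapk9, which encodes the stress-activated kinase JNK2, had log2 levels of 8.94, 8.81, 9.49 and 9.34 in SNS, 9.63, 9.72, 9.47 and 9.37 in BNS, 9.68, 9.58, 9.40 and 10.27 in BYS, 10.16, 9.62, 9.45 and 9.83 in BYA, and 9.86, 9.93, 9.57 and 9.70 in BYP. SNS replicates 1 and 2 lay below all other samples, and SNS replicate 3 reached into the range of BNS, BYS and BYA. Mapk9 rose by 0.59 ± 0.19 (SE, adjusted p = 0.028) in BYS, 0.62 ± 0.19 (SE, adjusted p = 0.0186) in BYA and 0.62 ± 0.19 (SE, adjusted p = 0.02) in BYP, and its difference in BNS was 0.40 (adjusted p = 0.115). Each of these calls was lost without SNS replicate 1 or 2, and also without BYS replicate 1 or 4, BYA replicate 1, or BYP replicate 1 or 2 in turn (adjusted p from 0.0525 to 0.1005).

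Mapk12, the p38 gamma kinase, was the only gene called lower in more than 1 comparison. Its log2 levels were 9.65, 9.5, 9.20 and 9.21 in SNS, 8.99, 9.23, 9.54 and 9.003 in BNS, 9.25, 8.73, 8.82 and 9.02 in BYS, 8.59, 8.75, 9.16 and 9.17 in BYA, and 9.21, 9.07, 9.29 and 9.03 in BYP. BYA lay below SNS in every sample, and BYS overlapped SNS through BYS replicate 1. Mapk12 fell by 0.43 on the log2 scale in BYS (SE 0.16, adjusted p = 0.0483) and by 0.47 in BYA (SE 0.16, adjusted p = 0.0294), beside −0.20 in BNS and −0.24 in BYP. Both calls were lost without SNS replicate 1 or 2, and the BYS call also without SNS replicate 4 or BYS replicate 2, 3 or 4, the BYA call without BYA replicate 1 or 2 (highest adjusted p = 0.141). Mapk3 (ERK1), Mapk8 and Mapk10 (JNK1 and JNK3), and Mapk11, Mapk13 and Mapk14 (p38 forms) were not called, with differences from −0.48 (Mapk10 in BNS) to 0.26 (Mapk11 in BYA). Nor was Fyn, a kinase that phosphorylates NMDA receptor subunits, with differences of −0.40, 0.085, −0.13 and −0.41 from SNS in BNS, BYS, BYA and BYP.

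Some other features of the samples also differed between conditions, though not all of them in every betamethasone group. The mean log2 level of 4 choroid plexus markers was 9.62 in SNS (from 9.47 to 9.71) and 9.06 to 9.23 in the other conditions. The 4 did not move together, Aqp1 reading 7.58 to 7.73 in SNS and 7.84 to 7.93 in BNS. The mean of 8 microglia markers was 10.76 to 10.85 in SNS and 10.57 to 10.64 in BNS. In BNS replicate 4 the marker C1qa had no valid spot and was left out of the mean. C1qa read 12.11 to 12.22 in the other BNS rats, well above that mean, so no separation from SNS is read from it. Of the 8, 1 was called in BNS, lower, while Csf1r read 8.65 to 8.89 in SNS and 8.64 to 8.99 in BNS. The mean of 5 endothelial markers was 11.01 to 11.15 in SNS and 10.64 to 10.92 in BYA. Both means overlapped SNS in the other groups. The mean of 4 red blood cell genes was 14.25 in SNS (from 14.15 to 14.46), 14.24 in BYP, 14.58 in BYS, 14.70 in BYA and 14.82 in BNS. In whole tissue, fewer cells of a type and less RNA per cell cannot be told apart. The part of these markers and of array brightness in the kinase differences was not tested.

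A wider list of partners of these kinases was also counted, 105 of 117 genes being tested. Against SNS, 8 were higher and 9 lower in BNS, 14 and 8 in BYS, 16 and 8 in BYA, and 16 and 6 in BYP, or 16.2%, 21%, 22.9% and 21% of the list, each below the share of all genes given above (28.6%, 27.1%, 31.3% and 28.9%). The median differences were −0.04, 0.03, 0.01 and 0.01. The lowest p values belonged to Calm3, which encodes calmodulin (1.17, 1.13, 1.12 and 1.11 in BNS, BYS, BYA and BYP), Camkv, a kinase-like calmodulin binder (1.36, 1.34, 1.55 and 1.43), and Prkd1, a protein kinase D activated by diacylglycerol (0.79, 0.86, 0.69 and 0.82).

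Between spasm and no spasm rats born to betamethasone-treated mothers (BYS against BNS), 0 of the 39 genes were called, beside 0.0293% of all genes. An unadjusted p under 0.05 was found for 4 of the 39 (10.3%), beside 6.92% of all genes. The median difference of the 39 was 0.09, beside 0.00 over all genes, with 27 fitted higher in BYS and 12 lower. The lowest p belonged to Camk2g, the gamma subunit of calcium/calmodulin kinase II, with log2 levels of 11.58, 11.26, 11.43 and 11.02 in SNS, 10.96, 11.03, 11.35 and 11.37 in BNS, 12.29, 11.20, 11.80 and 11.91 in BYS, 11.73, 12.14, 11.81 and 12.01 in BYA, and 12.27, 11.30, 11.32 and 10.95 in BYP. BYS replicates 1, 3 and 4 lay above all BNS samples and BYS replicate 2 within their range, a difference of 0.62 ± 0.23 (SE, adjusted p = 0.571). Gsk3b had log2 levels of 11.84, 11.73, 11.63 and 11.56 in SNS, 11.24, 11.62, 11.60 and 11.16 in BNS, 12.14, 11.32, 11.79 and 12.17 in BYS, 12.05, 11.91, 11.57 and 12.01 in BYA, and 11.92, 12.05, 11.77 and 11.95 in BYP. BYS replicate 2 lay inside the BNS range and the other BYS samples above it, and the difference was 0.45 ± 0.17 (SE, adjusted p = 0.572). Prkce, the epsilon isoform of protein kinase C, had log2 levels of 9.26, 9.11, 8.63 and 8.55 in SNS, 8.70, 8.95, 8.86 and 8.96 in BNS, 9.91, 8.77, 9.44 and 9.53 in BYS, 9.20, 9.53, 9.21 and 9.31 in BYA, and 9.77, 9.20, 8.998 and 9.10 in BYP. BYS replicate 1 was the highest of all 20 samples, and the difference was 0.55 ± 0.21 (SE, adjusted p = 0.593).

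The combined criterion, after the study's methods, joins an unadjusted test with unequal variances to a fold cut-off set for each gene. The cut-off was set here from the spread between samples alone, while the study's also takes in the technical noise of the spots. The criterion used here is therefore only an approximation of the study's. Between BYS and BNS it called 4 genes of the set, Camk2a and Pik3ca higher and Mapk13 and Prkar1a lower (beside 7.02% of all genes), with ratios from 0.895 to 1.17. None of the 4 was called by limma. Akt1, a gene of the insulin arm, had log2 levels of 10.63, 10.50, 10.56 and 10.24 in SNS, 10.39, 10.61, 10.56 and 9.98 in BNS, 10.56, 10.04, 10.09 and 10.44 in BYS, 10.50, 10.37, 10.58 and 11.06 in BYA, and 10.80, 10.50, 11.04 and 10.24 in BYP. Its groups overlapped everywhere, and the difference between BYS and BNS was −0.11 (95% interval −0.48 to 0.27, adjusted p = 0.99). Without BNS replicate 2 it was 0.01, and with every channel scaled to the same median it was 0.18, so no direction is given for it. Fyn had log2 levels of 10.97, 10.89, 10.77 and 10.82 in SNS, 10.42, 10.41, 10.30 and 10.72 in BNS, 11.41, 10.68, 10.76 and 10.94 in BYS, 10.76, 10.96, 10.64 and 10.59 in BYA, and 11.34, 10.77, 9.75 and 9.94 in BYP. BYS replicate 1 and BYP replicate 1 were the highest of their groups, as they were for Camk2b and Camk2g, and BYP replicates 3 and 4 were the lowest of all samples. The Fyn difference between BYS and BNS was 0.48 (95% interval −0.045 to 1.01, adjusted p = 0.761). Plcb1 differed by 0.14 (interval −0.058 to 0.34, and −0.078 with median scaling) and Pik3ca by 0.12 (interval −0.086 to 0.34).

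With ACTH treatment (BYA against BNS), 0 of the 39 genes were called, beside 0.117% of all genes, and 5 had an unadjusted p under 0.05 (12.8%, beside 13.1% of all genes). The median difference was 0.11, beside −0.003 over all genes, and 30 of 39 were fitted higher in BYA. Camk2g differed by 0.74 ± 0.23 (SE, adjusted p = 0.195), all 4 BYA samples lying above all 4 BNS samples. Gsk3b differed by 0.48 ± 0.17 (SE, adjusted p = 0.235), its lowest BYA sample falling inside the BNS range. Camk2a, the alpha subunit of the same holoenzyme as Camk2g, had log2 levels of 8.33, 8.51, 8.17 and 7.99 in SNS, 8.21, 8.21, 8.25 and 8.22 in BNS, 8.50, 8.42, 8.36 and 8.49 in BYS, 8.73, 8.49, 8.42 and 8.44 in BYA, and 8.11, 8.23, 8.37 and 8.31 in BYP, and its BYA samples, 3 of 4 above background, lay above all BNS samples, with a difference of 0.30 ± 0.10 (SE, adjusted p = 0.242). The combined criterion called 5 genes, Camk2a, Camk2g, Gsk3a, Gsk3b and Prkce, all higher in BYA (9.67% of all genes).

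With PMX53 treatment (BYP against BNS), 0 of the 39 were called, beside 1.5% of all genes, and 7 had an unadjusted p under 0.05 (17.9%, beside 17.8%). The median difference was 0.18, beside 0.00 over all genes, and 31 of 39 were fitted higher in BYP. Gsk3b came nearest to the threshold at 0.52 ± 0.17 (SE, adjusted p = 0.112), all BYP samples lying above all BNS samples. Pik3r1, the p85 alpha regulatory subunit of phosphoinositide 3-kinase, had log2 levels of 10.51, 10.57, 10.61 and 10.39 in SNS, 9.42, 9.62, 10.42 and 10.07 in BNS, 10.27, 9.35, 10.62 and 10.84 in BYS, 10.83, 10.37, 9.65 and 10.40 in BYA, and 10.33, 10.98, 10.34 and 10.86 in BYP. Its values were spread widely within BNS, BYS and BYA, while the SNS samples lay close together, and the difference of BYP was 0.74 ± 0.29 (SE, adjusted p = 0.195). Camk4, a nuclear calmodulin kinase that phosphorylates CREB, had log2 levels of 9.97, 10.24, 10.50 and 9.91 in SNS, 9.72, 10.04, 9.78 and 9.69 in BNS, 9.74, 9.79, 9.88 and 9.66 in BYS, 10.06, 10.16, 9.5 and 10.09 in BYA, and 10.23, 10.26, 10.27 and 9.90 in BYP. BYP replicates 1, 2 and 3 lay close together above BNS and replicate 4 inside its range, for a difference of 0.36 ± 0.15 (SE, adjusted p = 0.222). The combined criterion called 6 genes, Camk4, Gsk3b, Pik3ca, Pik3r1 and Prkacb higher and Prkar2b lower (14.2% of all genes).

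The comparisons with BNS share the 4 BNS samples. Between BYA and BYS, 0 of 39 were called, beside 0% of all genes, and 0 had an unadjusted p under 0.05, beside 8.07% of all genes. The lowest p values were those of Akt1 (0.35 ± 0.18 (SE, adjusted p = 0.646)), Prkcd (−0.36 ± 0.20 (SE, adjusted p = 0.678)) and Mapk11, a p38 beta kinase (0.25 ± 0.14 (SE, adjusted p = 0.691)). Mapk11 had log2 levels of 8.92, 9.03, 8.82 and 8.72 in SNS, 8.97, 9.11, 9.21 and 8.79 in BNS, 9.17, 8.90, 8.70 and 8.75 in BYS, 9.04, 9.16, 8.90 and 9.41 in BYA, and 8.85, 8.69, 9.20 and 8.59 in BYP. In none of the 3 did BYA and BYS separate. The combined criterion called Mapk13 alone, higher in BYA with a ratio of 1.06 (4.64% of all genes).

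Between BYP and BYS, 0 of 39 were called, beside 0.0351% of all genes, and 1 had an unadjusted p under 0.05, beside 8.5%. It was Camk4 (0.40 ± 0.15 (SE, adjusted p = 0.471)), all 4 BYP values lying above all 4 BYS values. Akt1 (0.36 ± 0.18 (SE, adjusted p = 0.611)) and Prkar1a (0.24 ± 0.12 (SE, adjusted p = 0.621)) followed. With every channel scaled to the same median the last 2 turned to −0.070 and −0.32. That scaling called Camk2g (−0.87) and Fyn (−0.94) lower in BYP. It called Akt2 (0.86), Plcb3 (0.59) and Prkar2a (0.97) higher, and 16.5% of all genes were called with it. The combined criterion called Camk4 higher and Camk2a lower in BYP (5.1% of all genes).

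Between BYP and BYA, 0 of 39 were called, beside 0.158% of all genes, and 2 had an unadjusted p under 0.05, beside 13.6%. Prkcd was higher in BYP by 0.51 ± 0.20 (SE, adjusted p = 0.267), its BYP range beginning at 9.43, inside that of BYA. Camk2a was lower in BYP, with a difference of −0.27 ± 0.10 (SE, adjusted p = 0.271), with all BYP values below all BYA values, and Mapk11 differed by −0.29 ± 0.14 (SE, adjusted p = 0.38). The combined criterion called Camk2a alone, lower in BYP (6.44% of all genes). With every channel scaled to the same median the Camk2a difference was 0.017. The mean level of Camk2a was 8.52 ± 0.14 (SD, n = 4) in BYA, 8.44 ± 0.065 (SD, n = 4) in BYS, 8.25 ± 0.11 (SD, n = 4) in BYP and 8.22 ± 0.021 (SD, n = 4) in BNS. The partner list gave 0 calls in each of the 6 comparisons among the betamethasone groups.

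**Figure D4:**
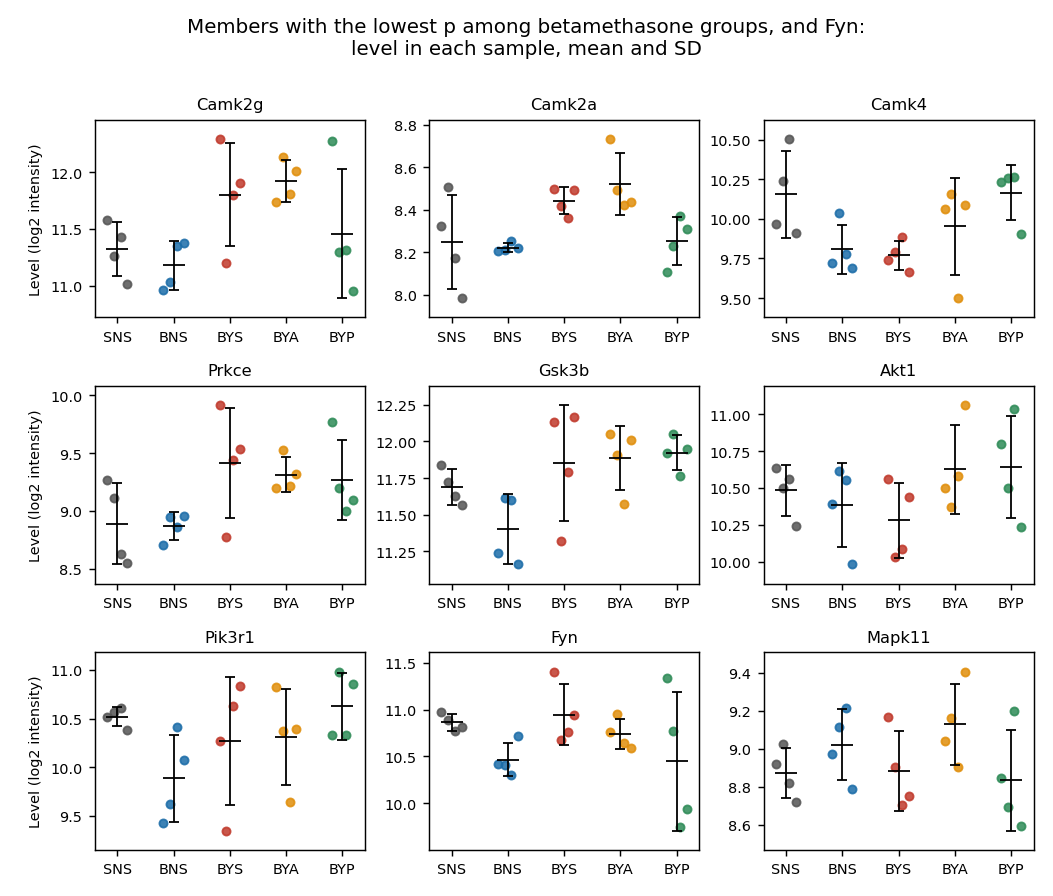
Log2 levels in every sample of Camk2g, Camk2a, Camk4, Prkce, Gsk3b, Akt1, Pik3r1, Fyn and Mapk11, points being rats grouped by condition. BYS replicate 1 and BYP replicate 1 stand highest in their groups for Camk2g and Fyn, and the groups overlap in most panels.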

How the data were processed

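The authors deposited 1 file per array with the intensities of 44254 spots. Both the spot means with their local background medians and the software's processed signals were used. Per the file headers, the former are raw intensities and the latter intensities after background subtraction and dye normalization. The software, Agilent Feature Extraction, is given as 10.7.3.1 in the submitters' processing notes and as 11.5.1.1 in the file headers. In the deposited files, 82 columns belong to samples of another series and were not used. The 43 genes and the lists of partners and markers were chosen with earlier results of these data known.

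Each channel was taken as a sample. Normexp correction (offset 50) and quantile normalization over the 20 channels were done in limma. Outlier spots (1.18% of values) were left out, and probes were required to have a share of 0.5 or more of spots well above background in each of the 4 samples of some condition, which left 17086 genes. Of the 30367 probes, 61.4% were matched to RefSeq symbols, and the others kept the symbol in the files. A gene's level is the average of its complete probes, or else its most complete probe. Conditions were compared with limma (lmFit and eBayes, two-sided) over all 20 samples with the dye as covariate, with Benjamini-Hochberg adjustment over all genes. The number of arrays limits the precision. Nothing in the labels gives litters, so rats of a condition may share one.

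Values in every sample are given for the genes called, the 3 with the lowest p in comparisons with fewer calls, and Akt1, Plcb1, Fyn, Pik3ca and Prkaca. Partner genes are named by lowest p, at most 3 per comparison. The fit of single probes was added after seeing the data. Alternatives were the array, slide or replicate number as a block, other scaling, signals, filters and probe rules, and fits of 8 samples. Each sample was also left out in turn, and the methods' t-test and an approximation of their combined criterion were applied. The scripts were tested on simulated data. Software was limma 3.58.1 with statmod 1.5.0, and data.table (version 1.17.8), under R 4.3.3.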

Additional observations from a re-analysis of the deposited data

Results flagged for a closer look

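In 8 of 194 groups of 4 samples (4.12%), 1 sample stood apart from the 3 others of its condition by more than Dixon's test allows, and chance alone gives about 1 in 20. Camk4 was at 9.90 in BYP replicate 4, below the 10.23 to 10.27 of the other BYP rats, and at 9.5 in BYA replicate 3, below 10.06 to 10.16. Mapk3 was at 16.46 in BYS replicate 1, above 16.16 to 16.20, and at 16.04 in BYA replicate 1, below 16.35 to 16.40. Camk2b was at 12.51 in BYP replicate 1, above 11.23 to 11.37. Camk2d was at 8.91 in BNS replicate 4, above 8.52 to 8.58. In SNS, Mapk13 was at 7.97 in replicate 1, below 8.47 to 8.53, and Pik3r2 at 11.36 in replicate 4, below 11.75 to 11.81.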

How the results depend on the processing

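Of 1168 values of named genes recomputed under alternatives, 982 kept their direction and side of the threshold, 148 lost the call, 24 gained one and 14 changed sign. With the array as a random block, 3 genes were called between BNS and SNS, 2 between BYS and SNS and 5 between BYA and SNS. The shares of all genes were 15.2%, 13.9% and 19.4%. With the slide as a random block, whose estimated correlation was negative (−0.13), the counts were 14 (7 higher and 7 lower), 15 and 14, with 3 between BYA and BNS and 4 between BYP and BNS, beside 47.7%, 46%, 45.6%, 5.02% and 15.5% of all genes. No slide carried more than 1 condition, so this fit cannot separate slide from condition, and nothing is concluded from its higher counts. Scaling each channel to the same median moved the median of all genes by up to −0.17 (BYP against BYS). It gave 7 calls in BNS (2 higher and 5 lower, beside 5 and 1 as reported), 3 in BYS and 3 in BYA against SNS. The shares of all genes were then 15.5%, 8.46% and 8.2%. Between BYP and BYS it gave 5 calls, beside 16.5% of all genes. The software's processed signals gave 2, 3, 4 and 4 calls in BNS, BYS, BYA and BYP against SNS, beside 13.7%, 13.5%, 10.5% and 16.3% of all genes. The strict filter gave 5 in BYS and 5 in BYA (28.9% and 32.5% of all genes), and fits of 8 samples 2 in BYS (19.9%). The methods' t-test, unadjusted, called 10 genes between BNS and SNS (35.6% of all genes). It called 4, 5 and 7 between BYS, BYA or BYP and BNS (7.57%, 10.3% and 14.9% of all genes). Between BYA and BYS it called 1 (4.99%), between BYP and BYS 2 (5.53%) and between BYP and BYA 1 (6.91%). After Benjamini-Hochberg adjustment it called 3, 2, 2 and 4 in BNS, BYS, BYA and BYP against SNS, beside 14.8%, 10%, 7.17% and 8.04% of all genes. The combined criterion called 10 between BNS and SNS (34.9% of all genes), 4, 5 and 6 against BNS, and 1, 2 and 1 among the spasm groups. The shares of all genes for the other comparisons are given above.

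Leaving out each sample in turn gave 4 to 6 calls between BNS and SNS, 5 to 8 in BYS, 5 to 9 in BYA and 7 to 10 in BYP against SNS, and 0 to 0 elsewhere. The lowest BYS count came without SNS replicate 2 or 3 or BYS replicate 4, and the lowest BYA count without SNS replicate 1. The BYA count of 9 was that without BYA replicate 3, whose channel is in doubt. Replicate numbers did not pair samples across conditions (mean correlation 0.0031, from −0.239 to 0.280). With the replicate number as a block 5 genes were called in BNS, 7 in BYS, 8 in BYA and 9 in BYP against SNS. The shares of all genes were 29.8%, 28.5%, 32.6% and 30.3%. In the other comparisons 0 of the kinase genes were called.

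The sign changed with median scaling for Akt1 between BYS and BNS (0.18) and BYP and BYS (−0.070), Plcb1 (−0.078) and Prkaca (0.092) between BYS and BNS, Prkar1a between BYP and BYS (−0.32) and BYP and SNS (−0.029), and Camk2a between BYP and BYA (0.017). With processed signals it changed for Prkar1a between BNS and SNS (−0.018), and for Prkaca between BYS and BNS with the strict filter (0.037) and the highest probe (0.037). Leaving out 1 sample gave a range of −0.22 to 0.0066 for Akt1 and of −0.053 to 0.029 for Prkaca between BYS and BNS. The causes were not tested. Signal over background was lowest in SNS, where part of these genes gave no clear signal.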
